A study of Mus musculus with 23 samples.

Results

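The Pfkfb family comprises 4 genes in the mouse, Pfkfb1, Pfkfb2, Pfkfb3 and Pfkfb4, which were chosen by gene symbol from tables that list 20628 genes (muscle), 26702 genes (fat) and 25623 genes (hypothalamus). All 4 were listed in each table, and all 4 passed the filter on low counts in each of the 3 tissues. The family was picked out because its oxaliplatin changes in muscle and in fat had opposite directions in earlier results of these same libraries. The values below bear this out for Pfkfb3 only: Pfkfb1 and Pfkfb4 had a log2 change below 0 in both tissues, and that of Pfkfb2 was smaller than its standard error in each. The changes in those 2 tissues are therefore described below without a test, and tests are given only for hypothalamus, for the levels in vehicle fat against vehicle hypothalamus, and for the other genes of the pathway.

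Each gene encodes a bifunctional enzyme, with a kinase end that makes the sugar phosphate fructose-2,6-bisphosphate and a phosphatase end that removes it. This small metabolite is the strongest known activator of phosphofructokinase (PFK1), the enzyme that commits glucose carbon to glycolysis, and it inhibits fructose bisphosphatase, which runs the opposite step. Pfkfb1 is the classical isoform of liver and skeletal muscle, Pfkfb2 that of heart, Pfkfb3 is widely inducible with a kinase activity far above its phosphatase activity, and Pfkfb4 was first described in testis.

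RNA was sequenced from C57BL/6 mice that had received vehicle or oxaliplatin, a platinum chemotherapy drug, at 10 mg/kg over 8 weeks. The libraries came from the tibialis anterior, a fast hindlimb muscle (4 vehicle and 5 oxaliplatin), from subcutaneous white fat (3 and 4) and from hypothalamus (3 and 4), 23 libraries in all. The labels used here give neither the age nor the sex of the animals, and do not state that libraries of a group came from separate animals, although their titles carry different mouse numbers. The muscle RNA went through a Clontech SMARTer protocol and the RNA of the other tissues through RiboErase, which depletes ribosomal RNA, so levels in muscle are set beside the others without a test, since kit and tissue cannot be told apart. Library totals ranged from 22427757 to 32151410 counts in muscle, 16458569 to 22748414 in fat and 23553691 to 28529357 in the brain samples, where each oxaliplatin library was shallower than each vehicle library.

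3 libraries need care before the values are read. 1 muscle library, oxaliplatin mouse 5 by its title and by the stated group sizes, is entered as vehicle under treatment, and it was counted as oxaliplatin. In fat, the vehicle mouse 4 library held 123398 CPM (counts per 1000000 counts of a library) over 8 skeletal muscle fibre markers, against 14.96 to 3034 CPM in the other fat libraries and 131495 to 178057 CPM in the muscle libraries. Also in fat, the oxaliplatin mouse 5 library had 10626 CPM over 8 adipocyte markers and 8815 CPM over 5 fibroblast markers, where the other oxaliplatin libraries had 4528 to 5073 and 610 to 1036 CPM. The vehicle fat libraries had 10520 to 14937 and 4342 to 6105 CPM. Most of the fibroblast range came from the collagens Col1a1 (33.4 to 2873 CPM over the fat libraries) and Col3a1 (43.3 to 5166 CPM). Pdgfra (90.3 to 167 CPM) and Dcn (411 to 705 CPM) varied far less. Markers defining each labelled tissue were present: the lowest of the muscle fibre markers averaged 2122 CPM in muscle (Pvalb), the lowest adipocyte marker averaged 225 CPM in fat (Pparg), and the lowest hypothalamic neuropeptide averaged 7.58 CPM in hypothalamus (Agrp).

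The sequences before the start sites of Pfkfb3 and Pfkfb4 are shown because these were the members whose vehicle and oxaliplatin libraries separated in a tissue, and 1 of Pfkfb2 because it carries the same motif as Pfkfb3 in a gene whose libraries did not separate. They come from RefSeq on GRCm38.p6, read 5′ to 3′ on the gene's strand, cover 250 bases before a start site, and leave out bases annotated as exon. All 4 genes matched, with 2 starts for Pfkfb3, 1 for Pfkfb4, 3 for Pfkfb2 and 4 for Pfkfb1. Capitals mark matches to 4 motifs, each searched on both strands. The first is the E-box CACGTG, read by clock and MYC-family factors. The next is the core of the hypoxia response element, ACGTG, which lies within every E-box of this spelling. The others are a single glucocorticoid receptor site, AGAACA, and a single site of the ROR and REV-ERB receptors, spelled AGGTCA.
Pfkfb3, downstream start, chr2:11502102-11502340, minus strand: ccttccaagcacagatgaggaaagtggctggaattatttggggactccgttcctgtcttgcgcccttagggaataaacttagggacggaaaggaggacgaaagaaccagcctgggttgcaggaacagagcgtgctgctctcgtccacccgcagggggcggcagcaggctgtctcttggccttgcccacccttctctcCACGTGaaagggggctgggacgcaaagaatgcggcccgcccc
Pfkfb3, upstream start, chr2:11554078-11554179, minus strand: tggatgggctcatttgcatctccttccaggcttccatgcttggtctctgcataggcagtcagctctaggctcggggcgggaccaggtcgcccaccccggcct
Pfkfb4, chr9:108991652-108991777, plus strand: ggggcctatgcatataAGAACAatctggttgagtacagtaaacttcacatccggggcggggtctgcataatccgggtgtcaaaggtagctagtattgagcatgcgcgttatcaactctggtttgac
Pfkfb2, 1 of its starts, chr1:130715822-130716071, minus strand: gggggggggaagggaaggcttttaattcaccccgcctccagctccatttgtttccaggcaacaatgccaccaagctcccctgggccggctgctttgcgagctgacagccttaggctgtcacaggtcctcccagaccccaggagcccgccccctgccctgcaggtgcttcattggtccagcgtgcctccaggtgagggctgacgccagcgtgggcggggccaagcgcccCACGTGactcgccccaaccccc

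The E-box of Pfkfb3 began at position -53 from the downstream start, and that of Pfkfb2 at -22. Before the upstream start of Pfkfb3 a hypoxia core began at -60, inside an annotated exon and so not printed. Pfkfb4 had a glucocorticoid receptor site at -234 and none of the other motifs. Pfkfb2 held the same letters at -144, and a hypoxia core at -172, before another of its starts, which is not printed. Of the 4 genes only Pfkfb1 had a ROR and REV-ERB site, before 1 of its starts. Among 32851 windows of 300 bases around RefSeq starts, 7.2% held the E-box, 19.6% the hypoxia core, 6233 windows the glucocorticoid receptor site and 16.3% the ROR and REV-ERB site. The matches are of letters and do not show that a factor was bound.

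In the annotation (GENCODE M21, GRCm38), Pfkfb1 (ENSMUSG00000025271) lies on chromosome X from 150588229 to 150643878 on the plus strand, and Pfkfb2 (ENSMUSG00000026409) on chromosome 1 from 130689182 to 130729253 on the minus strand. Pfkfb3 (ENSMUSG00000026773) lies on chromosome 2 from 11471433 to 11554077 on the minus strand, and Pfkfb4 (ENSMUSG00000025648) on chromosome 9 from 108991778 to 109032228 on the plus strand. Their merged exons span 4.02, 7.25, 7.56 and 4.88 kb, in the order of their numbers, and levels of different members are compared only as CPM per kilobase of merged exons. No source used here gives the strand setting of the counting, so reads of overlapping genes cannot be told apart. Pfkfb1 shares 3.06% of its exon bases with the antisense gene Apex2, and Pfkfb2 shares 17.4% with Gm29427, not analysed here, and 2.12% with the antisense gene Yod1. Pfkfb3 shares no exon base with the 2 gene models inside it, and Pfkfb4 overlaps no other gene.

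Pfkfb3 was the most abundant isoform in vehicle fat and vehicle hypothalamus, and no single isoform led in vehicle muscle. In vehicle muscle, Pfkfb1 stood at 11.8 ± 2.36 CPM per kilobase (SD, n = 4), Pfkfb4 at 10.2 ± 2.12, Pfkfb3 at 8.01 ± 1.37 and Pfkfb2 at 0.935 ± 0.139. The ranges of Pfkfb1 and Pfkfb4 overlapped, as did those of Pfkfb4 and Pfkfb3, so only Pfkfb2 stood apart from its neighbour. In vehicle fat, Pfkfb3 reached 143 ± 15.02 CPM per kilobase (SD, n = 3), followed by Pfkfb1 at 11.7 ± 0.712, Pfkfb4 at 5.09 ± 1.48 and Pfkfb2 at 2.82 ± 0.417, with no overlap between neighbours. In vehicle hypothalamus, Pfkfb3 was again first at 5.53 ± 0.323 CPM per kilobase (SD, n = 3), Pfkfb2 at 2.34 ± 0.439 and Pfkfb4 at 2.11 ± 0.204 overlapped, and Pfkfb1 was close to undetected at 0.0910 ± 0.0392. That Pfkfb1 level rests on 5 to 13 counts per library.

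**Figure D1:**
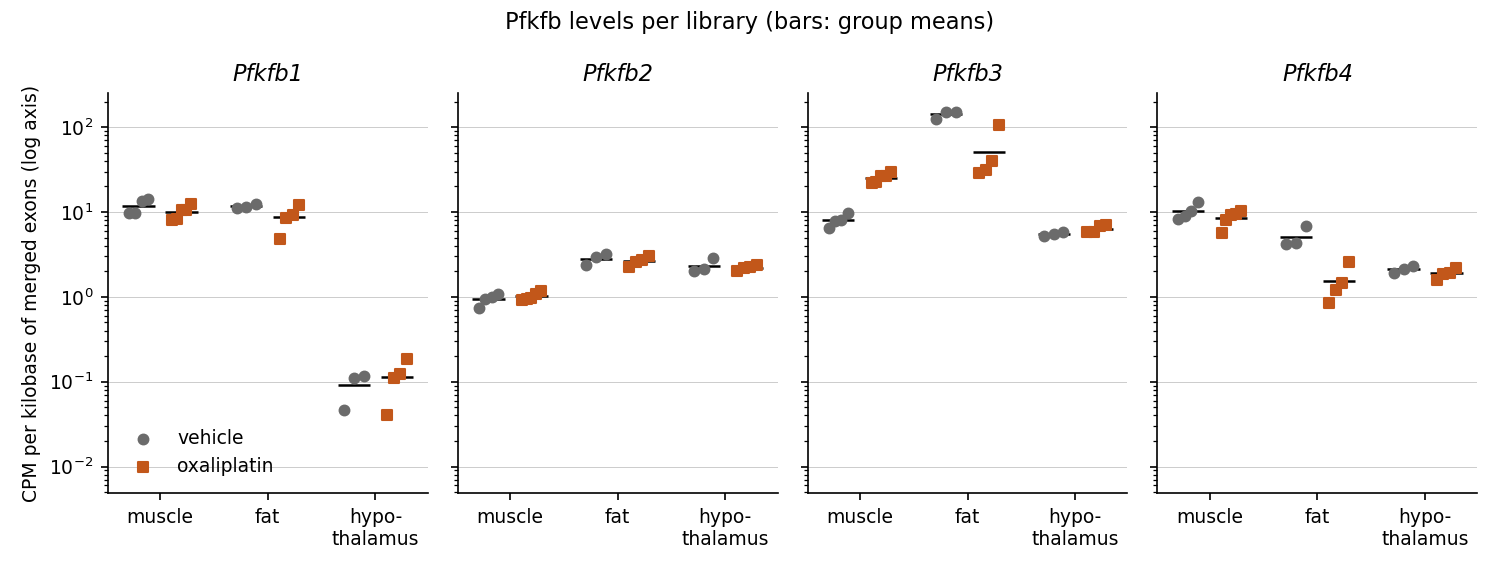
Level of each Pfkfb gene in the 23 libraries, in CPM per kilobase of merged exons on a log axis, by tissue, with vehicle as grey circles, oxaliplatin as orange squares and group means as bars. Pfkfb3 in vehicle fat (mean 143) is the highest group, and in muscle the orange squares of Pfkfb3 lie above the grey circles while in fat they lie below.

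Fat and hypothalamus libraries were made with the same kit, so their vehicle levels were tested in 1 edgeR quasi-likelihood fit, in which 71.7% of 19564 genes passed an adjusted p of 0.05 (Benjamini-Hochberg). 3 of the 4 members passed, all higher in fat, a direction in which 37.5% of genes passed. Pfkfb1 was higher in fat by 6.79 ± 0.27 on the log2 scale (SE, edgeR adjusted p = 5.74e-07), at 42.4 against 0.375 CPM. Pfkfb3 was higher by 4.50 ± 0.15 (edgeR adjusted p = 2.62e-07), at 972 against 43.0 CPM. The CPM in this paragraph use TMM factors from the fit of both tissues, so they differ from those given elsewhere for the same libraries. Pfkfb4 was higher by 1.09 ± 0.22 (edgeR adjusted p = 0.0030), and by 0.78 without the vehicle fat library that held muscle markers. No difference was found for Pfkfb2 (0.08 ± 0.17, 95% interval -0.31 to 0.46, edgeR adjusted p = 0.70), and the interval spans modest differences in either direction.

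The same levels can be read as shares of the family sum per kilobase. Pfkfb3 was 87.8% ± 1.43 (SD, n = 3) of that sum in vehicle fat, 55.0% ± 4.65 (n = 3) in vehicle hypothalamus and 25.7% ± 3.04 (n = 4) in vehicle muscle. Pfkfb1 held 38.2% ± 7.13 in vehicle muscle, 7.29% ± 1.16 in vehicle fat and 0.904% ± 0.391 in vehicle hypothalamus. Pfkfb2, the smallest share in muscle at 3.03% ± 0.548 and in fat at 1.76% ± 0.405, held 23.1% ± 3.41 in hypothalamus. Pfkfb4 held 33.1% ± 6.87 in vehicle muscle, 20.9% ± 1.59 in hypothalamus and 3.12% ± 0.752 in fat.

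In muscle, oxaliplatin and vehicle libraries stood apart for Pfkfb3 alone among the members. Its vehicle libraries, mouse 1 to 4, had 73.7, 48.5, 59.0 and 61.0 CPM. The oxaliplatin libraries, mouse 1 to 5, had 169.6, 202, 199.5, 164.6 and 225.9 CPM. Every oxaliplatin library thus lay above every vehicle library. The means were 60.6 ± 10.3 CPM (SD, n = 4) and 192 ± 25.3 CPM (SD, n = 5), a log2 change of 1.67 ± 0.15 (SE), or 3.18-fold. With the library titled oxaliplatin mouse 5 counted as vehicle, the change was 0.97 ± 0.43. That library had the highest Pfkfb3 level of the 9.

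The other members moved little in muscle. Pfkfb1 had 56.9, 54.6, 39.6 and 39.1 CPM in the vehicle libraries and 32.8, 42.7, 49.97, 42.7 and 32.6 CPM in the oxaliplatin libraries, a log2 change of -0.24 ± 0.16 (SE). Pfkfb4 had 44.2, 40.6, 64.1 and 50.6 CPM against 46.0, 27.9, 39.0, 44.6 and 49.7 CPM, a log2 change of -0.27 ± 0.18. Both sets of libraries overlapped. Pfkfb2 ranged from 5.42 to 7.80 CPM in vehicle and from 6.60 to 8.60 CPM in oxaliplatin libraries, a log2 change of 0.12 ± 0.15, also with overlap. In the fit over all genes, 0.163% of 14737 passed an adjusted p of 0.05 (0.115% higher), and 1 of the 4 members, Pfkfb3, was among them. The vehicle and oxaliplatin libraries did not overlap for 3.89% of genes (2.18% higher), and among the members for Pfkfb3 only. Nothing is read from these counts, since the members were chosen with the muscle change in view.

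Pfkfb3 was 56.5% ± 4.12 (SD, n = 5) of the family sum per kilobase after oxaliplatin, against 25.7% in vehicle muscle, where Pfkfb1 had the highest mean. After oxaliplatin Pfkfb1 held 22.3% ± 3.95 and Pfkfb4 18.98% ± 4.12, both below Pfkfb3. The order in vehicle muscle depended on the length correction: as shares of the counts without it, Pfkfb3 already had the highest mean there, at 36.6% ± 3.66 (SD, n = 4), beside Pfkfb4 at 30.3% ± 6.08 and Pfkfb1 at 28.9% ± 5.95, with overlapping ranges. The sum over the family was 31.0 ± 2.24 CPM per kilobase in vehicle and 45.0 ± 3.52 in oxaliplatin muscle. Summed muscle fibre markers overlapped between the groups (133858 to 175683 against 131495 to 178057 CPM), and so did adipocyte markers (196 to 286 against 242 to 265 CPM) and fibroblast markers (467 to 1531 against 355 to 716 CPM). 3 marker sums did not overlap between the groups. The sum of 5 endothelial markers was 106 to 137 CPM in vehicle and 162 to 182 CPM in oxaliplatin libraries. The sum of the neuron markers, of which Snap25 and Syt1 were absent, was 3.11 to 4.89 against 5.87 to 7.72 CPM, and that of 4 lymphocyte markers 1.02 to 4.09 against 0.427 to 0.861 CPM. The neuron sum was mostly Stmn2 (means 3.43 and 6.16 CPM), while Tubb3 went the other way (0.606 and 0.287 CPM). The part of these 3 sums in the Pfkfb3 value was not tested.

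**Figure D2:**
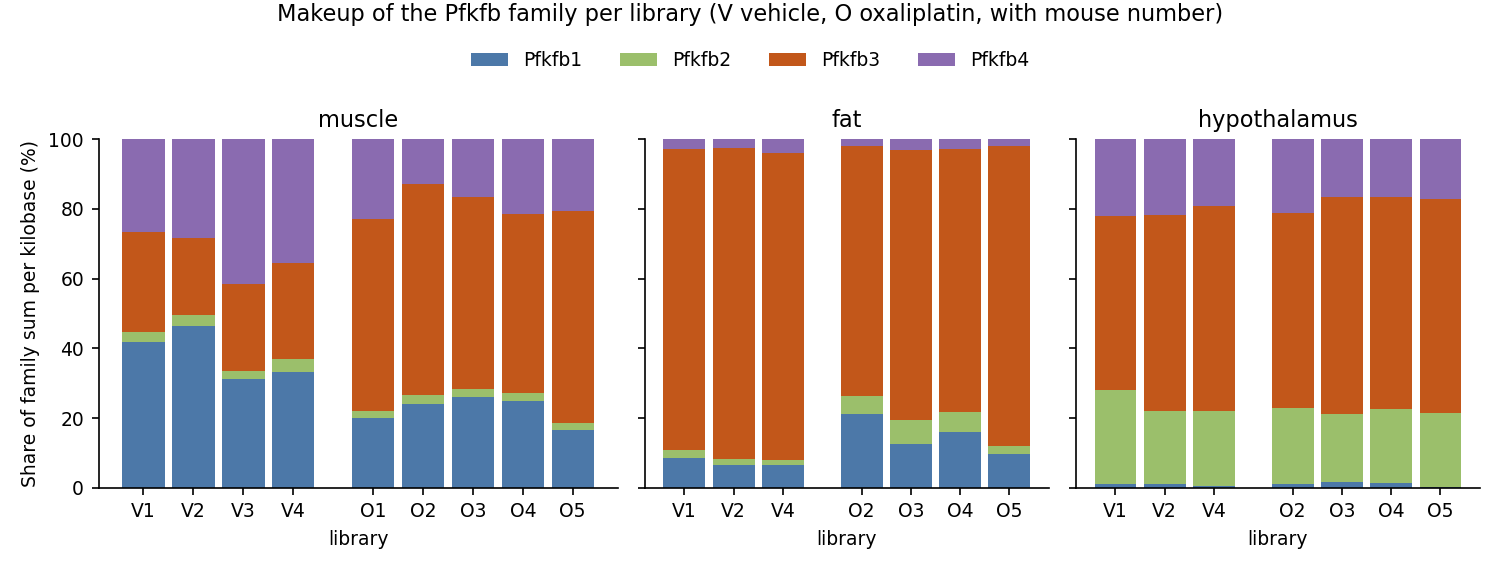
Share of each Pfkfb gene in the family sum per kilobase of merged exons, in percent, with 1 stacked bar per library (V vehicle, O oxaliplatin, with the mouse number) and 1 panel per tissue. Pfkfb3 takes most of each fat bar, and in muscle its share goes from 25.7% on average in vehicle to 56.5% in oxaliplatin libraries.

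In fat, Pfkfb3 and Pfkfb4 were both lower after oxaliplatin. Pfkfb3 had 948.7, 1152 and 1138 CPM in vehicle mice 1, 2 and 4. It had 236.7, 220.2, 303.5 and 793.3 CPM in oxaliplatin mice 2 to 5. The groups did not overlap, but the mouse 5 library lay closer to the vehicle libraries than to the other oxaliplatin libraries. The means were 1080 ± 114 CPM (SD, n = 3) and 388 ± 272 CPM (SD, n = 4), a log2 change of -1.47 ± 0.46 (SE). Without oxaliplatin mouse 5 it was -2.09 ± 0.19. In both groups Pfkfb3 was the most abundant member, since even the lowest fat library had 29.1 CPM per kilobase of it.

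Pfkfb4 had 20.2, 21.1 and 33.1 CPM in the vehicle fat libraries and 4.17, 5.87, 7.17 and 12.5 CPM in the oxaliplatin fat libraries. These groups did not overlap either, and again oxaliplatin mouse 5 was the highest of its group. The log2 change was -1.74 ± 0.38 (SE), -2.11 without oxaliplatin mouse 5 and -1.46 without vehicle mouse 4, the library with muscle markers and the highest Pfkfb4 value. The means were 24.8 ± 7.20 CPM (SD, n = 3) and 7.42 ± 3.58 CPM (SD, n = 4).

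Pfkfb1 in fat had 50.4, 45.1 and 46.0 CPM in vehicle and 37.4, 19.1, 34.4 and 48.3 CPM in oxaliplatin libraries, which overlapped, with a log2 change of -0.44 ± 0.28 (SE). Apex2, its antisense neighbour, had a change of like size in fat (47.6 and 34.8 CPM, log2 change -0.45). Pfkfb2 had 23.0, 21.2 and 17.1 CPM against 16.3, 18.9, 22.1 and 19.6 CPM, with a log2 change of -0.09 ± 0.16 and full overlap. The edgeR test called 0% of 19870 genes in fat (0 genes), no member among them, while 5178 genes (26.1%) had an unadjusted p under 0.05. DESeq2 called 2450 genes, or 13.6% of those it gave an adjusted p, Pfkfb3 and Pfkfb4 among them. Without oxaliplatin mouse 5 the edgeR test called 4969 of 19472 genes (25.5%), again with Pfkfb3 and Pfkfb4 among them. The groups did not overlap for 21.5% of all genes in fat (11.2% lower), and for Pfkfb3 and Pfkfb4 among the 4 members. Nothing is read from these counts either.

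**Figure D3:**
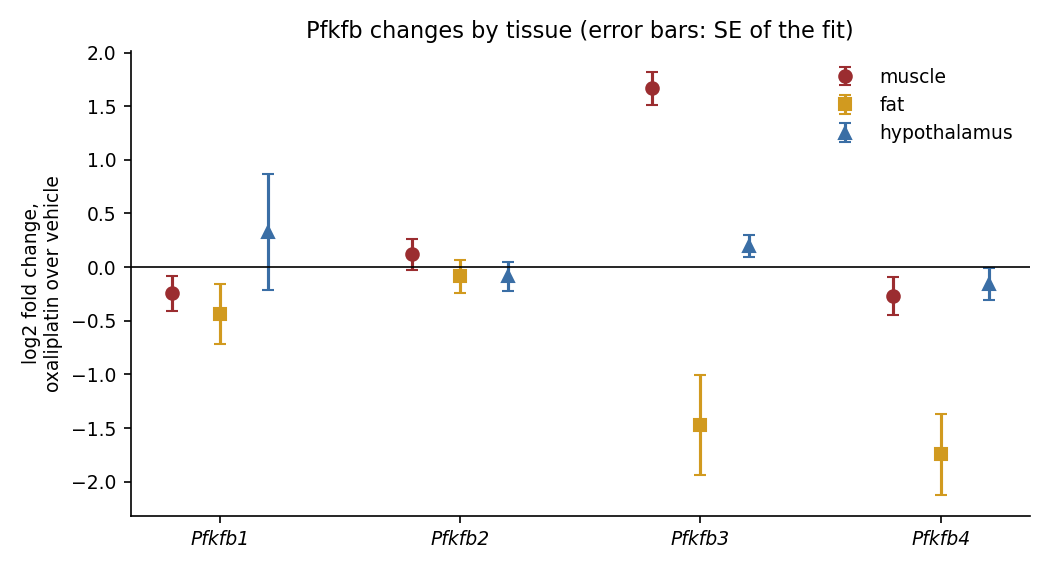
The log2 fold change of each Pfkfb gene, oxaliplatin over vehicle, in muscle (circles), fat (squares) and hypothalamus (triangles), with the standard error of the edgeR fit as bars. Pfkfb3 lies at 1.67 (muscle), -1.47 (fat) and 0.20 (hypothalamus), and the other members lie within 0.44 of 0 except Pfkfb4 in fat at -1.74.

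The summed family level in fat was 162 ± 14.8 CPM per kilobase (SD, n = 3) in vehicle and 64.2 ± 39.2 (SD, n = 4) in oxaliplatin libraries. As shares of that sum, Pfkfb3 held 77.5% ± 6.03 after oxaliplatin, Pfkfb1 14.96% ± 4.95, Pfkfb2 5.00% ± 1.997 and Pfkfb4 2.501% ± 0.583. Pfkfb2 itself was at 2.65 ± 0.328 CPM per kilobase after oxaliplatin, against 2.82 in vehicle. Pfkfb4, above Pfkfb2 in vehicle fat, was last after oxaliplatin at 1.52 ± 0.735 CPM per kilobase, with a range that overlapped that of Pfkfb2.

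The summed level of the adipocyte markers differed between fat libraries in the same direction as Pfkfb3 and Pfkfb4. In bulk tissue, fewer cells of a type and less RNA of a gene per cell cannot be told apart. All 8 adipocyte markers were present in fat, and their sum was 14937, 10983 and 10520 CPM in vehicle mice 1, 2 and 4 and 4909, 4528, 5073 and 10626 CPM in oxaliplatin mice 2 to 5. Their groups overlapped, and none of the 8 passed in edgeR (adjusted p from 0.13 to 0.48). Lep (log2 change -3.10), Plin1 (-1.68), Fabp4 (-1.11) and Lipe (-0.94) lay furthest below 0, Cidec (-0.39), Retn (-0.37) and Adipoq (-0.35) nearer to it, and Pparg lay above it (0.39). Per 1000 CPM of these markers, a ratio chosen after the values were seen, Pfkfb3 stood at 63.5, 105 and 108 CPM in vehicle and 48.2, 48.6, 59.8 and 74.7 CPM in oxaliplatin libraries. On that scale the Pfkfb3 groups overlapped. Pfkfb4 on the same scale stood at 1.35, 1.92 and 3.15 CPM in vehicle and 0.848, 1.30, 1.41 and 1.17 CPM in oxaliplatin libraries, which overlapped as well. Other marker sums without overlap in fat were those of 4 lymphocyte markers, 2.31 to 4.27 CPM in vehicle and 4.71 to 93.0 CPM in oxaliplatin libraries, and of 4 astrocyte markers, 147 to 180 against 184 to 603 CPM. The astrocyte sum was mostly Aldh1l1 (means 158 and 337 CPM). Aqp4, Slc1a2 and Gfap had means of at most 2.73 CPM in either group, each lower after oxaliplatin. The part of adipocyte content and of these other markers in both results was not tested.

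**Figure D4:**
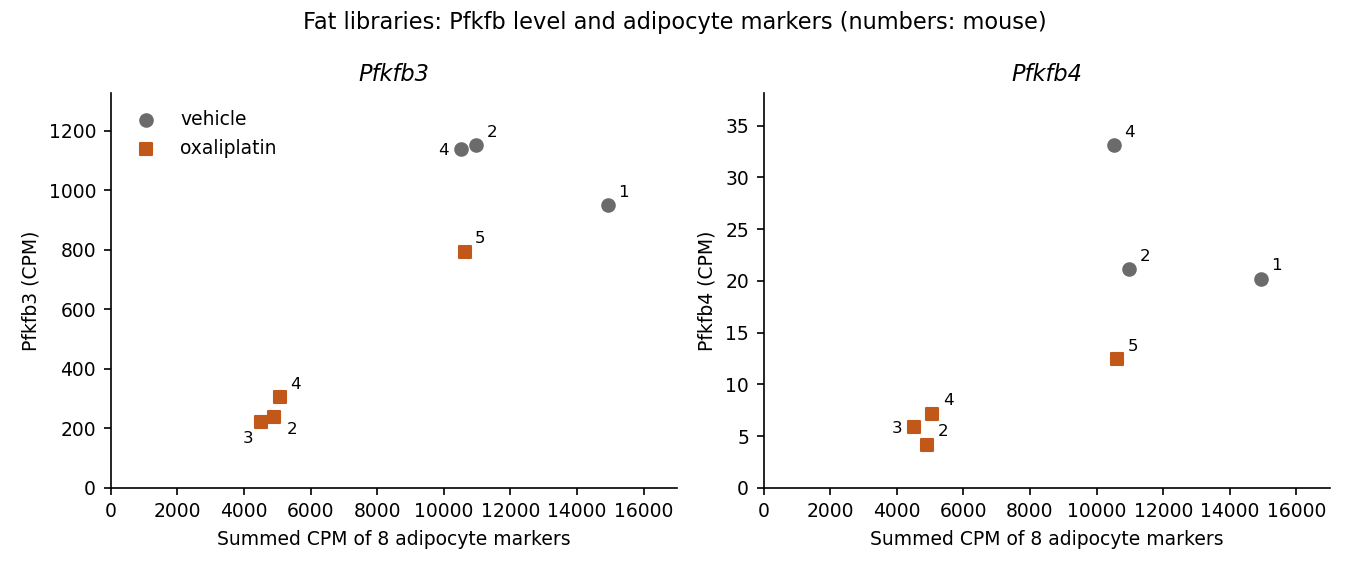
Pfkfb3 (left) and Pfkfb4 (right) in CPM against the summed CPM of 8 adipocyte markers in the 7 fat libraries, with vehicle as grey circles, oxaliplatin as orange squares and mouse numbers beside the points. Oxaliplatin mice 2 to 4 sit together at 4528 to 5073 CPM of markers, and oxaliplatin mouse 5 sits at 10626 CPM beside the vehicle libraries, with more Pfkfb3 than the other oxaliplatin libraries.

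In hypothalamus no member passed the test, in a comparison where 0.148% of 18941 genes did (28 genes, all higher). Pfkfb3 had 39.6, 41.5 and 44.5 CPM in vehicle and 43.9, 52.5, 43.5 and 52.1 CPM in oxaliplatin libraries. The groups overlapped, and the log2 change was 0.20 ± 0.10 (SE, 95% interval -0.03 to 0.43, edgeR adjusted p = 0.54). The interval leaves out changes as large as the 1.67 seen in muscle or the -1.47 in fat, although the difference between tissues was not tested.

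For Pfkfb4 in hypothalamus, the vehicle libraries had 11.3, 10.3 and 9.30 CPM and the oxaliplatin libraries 10.8, 9.09, 7.61 and 9.34 CPM, with a log2 change of -0.16 ± 0.15 (95% interval -0.49 to 0.17, edgeR adjusted p = 0.72). Pfkfb2 had 20.6, 14.6 and 15.6 CPM against 16.4, 15.9, 14.5 and 17.2 CPM, a log2 change of -0.08 ± 0.14 (95% interval -0.39 to 0.22, edgeR adjusted p = 0.84). Both overlapped between the groups. Pfkfb1 had 4 to 18 counts per library, too few to narrow its change, which was 0.33 ± 0.54 on the log2 scale (95% interval -0.88 to 1.53, edgeR adjusted p = 0.84). The shares of all 4 members overlapped between the groups, with Pfkfb3 at 60.1% ± 2.83 after oxaliplatin, Pfkfb2 at 20.9% ± 0.904 and Pfkfb4 at 17.9% ± 2.28. Endothelial markers summed to 92.1 to 103 CPM in vehicle and 238 to 493 CPM in oxaliplatin hypothalamus. After oxaliplatin that sum was mostly Vwf (means 30.05 and 235.9 CPM, log2 change 2.97). The log2 changes of the other endothelial markers were 1.804 (Kdr), 1.49 (Pecam1), 0.82 (Cdh5) and 0.18 (Tek), so the sum does not measure endothelial content evenly.

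Members differed in whether they moved together from library to library. In fat, log2 CPM of Pfkfb3 and Pfkfb4 correlated at Pearson r = 0.96 over 7 libraries, both groups included. The same pair had r = -0.43 over 9 muscle libraries and r = -0.39 over 7 hypothalamus libraries. Pfkfb1 and Pfkfb3 had r = 0.79 in fat and -0.43 in muscle. The points share their library scaling and the difference between groups, so these values are descriptions.

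Over all 23 libraries, with each gene set against its vehicle mean in the same tissue, 10551 genes were ranked by their Pearson r with each member. This r includes the difference between groups, so genes whose changes are like those of a member rank high by the choice itself. Their changes and their r within a tissue are therefore descriptions and not separate support. The 5 genes most like Pfkfb3 were Napepld (r = 0.96), which encodes a phospholipase that makes N-acylethanolamines, Slc8a1 (0.93), a sodium-calcium exchanger, Nr1d1 (0.92), which encodes the clock repressor REV-ERB alpha, Ephb6 (0.91), an Eph receptor that lacks kinase activity, and Rgcc (0.90), a regulator of cell cycle. Their log2 changes after oxaliplatin ran from 0.63 (Rgcc) to 1.37 (Nr1d1) in muscle and from -0.76 (Rgcc) to -1.55 (Slc8a1) in fat. Within a tissue their r with Pfkfb3 ran from 0.76 to 0.93 in muscle and from 0.91 to 0.97 in fat, but from -0.62 (Ephb6) to 0.62 (Rgcc) in hypothalamus. There the log2 change of Nr1d1 was -0.46, beside 0.20 for Pfkfb3. In fat, Slc8a1 had 24.7, 34.2 and 60.3 CPM in vehicle mice 1, 2 and 4, so its change rested in part on the library with muscle markers. Without that library its r with Pfkfb3 was 0.95 over 22 libraries.

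For Pfkfb4 the 5 genes were Nfix, Cpeb3, Sgcd, Rgs7bp and Fsd2, with r from 0.93 to 0.95. Nfix encodes a nuclear factor I transcription factor, Cpeb3 an mRNA-binding protein and Sgcd delta-sarcoglycan. Their log2 changes in fat ran from -0.95 (Nfix) to -3.07 (Fsd2), and within muscle their r with Pfkfb4 ran from -0.02 (Fsd2) to 0.76 (Rgs7bp). Pfkfb4 was highest in the vehicle fat library with muscle markers, and so were Nfix (580 CPM), Cpeb3 (105 CPM) and Fsd2 (153 CPM, against at most 60.2 CPM in the other fat libraries). Without that library the r of the 5 genes with Pfkfb4 ran from 0.91 (Fsd2) to 0.94 (Rgs7bp) over 22 libraries, and Fsd2 and Cpeb3 were no longer among the 5 highest. The highest r values were lower for the other members: Tctex1d2 (0.83), Echdc3 (0.79), Lyrm2 (0.76), Mettl2 (0.73) and Prdx4 (0.73) for Pfkfb1, and Brd9 (0.78), Hmcn1 (0.78), Ppip5k2 (0.73), Gpr137b-ps (0.72) and Mospd2 (0.71) for Pfkfb2. None of the 20 genes was shared between 2 members.

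Around the family, 5 lists of 74 genes in all covered its targets and partners. In muscle 1 of 68 tested list genes passed, Pfkl. This liver-type PFK1 subunit had 9.89, 9.98, 10.8 and 13.0 CPM in vehicle and 17.5, 18.9, 18.6, 21.6 and 20.9 CPM in oxaliplatin libraries, with no overlap. It rose by 0.83 ± 0.12 on the log2 scale (SE, edgeR adjusted p = 0.028), but passed in only 1 of 9 fits that left out a library, with adjusted p from 0.0096 to 0.12, and not with the mouse 5 library counted as vehicle. Pfkm, the muscle-type subunit and by far the most abundant, was at 4932 ± 712 and 4253 ± 500 CPM (SD) with overlap, a log2 change of -0.21 ± 0.17. Tigar, a phosphatase that also degrades fructose-2,6-bisphosphate, had 200 ± 18.998 and 135 ± 20.6 CPM without overlap, a log2 change of -0.57 ± 0.14 that did not pass in edgeR (adjusted p = 0.16) and did in DESeq2 (adjusted p = 0.013).

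The other muscle members of the list of PFK1 and fructose bisphosphatases showed overlap: Pfkp, the platelet-type subunit, at 6.70 and 8.25 CPM, and Fbp2, the muscle fructose bisphosphatase, at 73.3 and 70.8 CPM. Fbp1, the liver enzyme, was at most 0.205 CPM in muscle and 0.200 CPM in fat and was not tested in either. No member passed among 9 tested genes of glucose uptake and hexokinases, 18 of lower glycolysis and lactate, 15 of gluconeogenesis and pyruvate entry, and 21 kinases and factors that act on PFKFB proteins. The medians of the 5 lists lay between -0.09 and 0.05 on the log2 scale, beside -0.01 over all genes. The genes of smallest p in these lists were Slc2a1 (log2 change 0.31), Adpgk (-0.60), Slc16a7 (-0.98), Bpgm (-0.23), Pdk3 (-0.81), Pck2 (0.27), Akt2 (0.40) and Prkag2 (-0.34), with adjusted p from 0.40 to 0.75.

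In fat 0 of 69 tested list genes passed in edgeR, 27 had an unadjusted p under 0.05, where 26.1% of all genes did, and 14 passed in DESeq2, where 13.6% of all genes did. The list of lower glycolysis and lactate had a median log2 change of -1.004 with 16 of 18 genes below 0, beside 0.03 over all genes. Without vehicle mouse 4, the library with muscle markers, that median was -0.24 with 10 of 18 below 0. Pfkm shows the same library: it had 44.5, 24.4 and 1177 CPM in vehicle mice 1, 2 and 4 and 21.4 to 38.6 CPM in oxaliplatin libraries. Tigar (14.02, 9.18 and 61.5 CPM in vehicle, 10.5 to 12.1 after oxaliplatin) and Fbp2 (2.47, 0.809 and 12.9 CPM, against 0.0962 to 0.604) were also highest in that library. Pfkfb3 was not, with 1138 CPM there and 1152 CPM in vehicle mouse 2.

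Of the other fat genes, Slc2a1, the glucose transporter GLUT1, went the other way from Pfkfb3. It had 14.8, 15.7 and 14.97 CPM in vehicle and 49.9, 48.4, 36.8 and 23.2 CPM in oxaliplatin libraries, a log2 change of 1.39 ± 0.27 without overlap (edgeR adjusted p = 0.093). Akt2, the kinase that carries the insulin signal in fat, had 422 ± 36.2 and 185 ± 70.4 CPM (SD), a log2 change of -1.19 ± 0.27 (edgeR adjusted p = 0.11). Pfkl (-0.16) and Pfkp (0.00) hardly differed on the log2 scale. Ldha (-1.19), Tpi1 (-1.28), Mpc1 (-1.03), Mpc2 (-0.73), Adpgk (0.41) and Prkag3 (-4.51) were the other genes of smallest p, with adjusted p from 0.11 to 0.13. 3 of these values rested in part on vehicle mouse 4, the library with muscle markers: without it the log2 change was -0.65 for Ldha, -0.65 for Tpi1 and -2.28 for Prkag3, a subunit of the energy-sensing kinase AMPK, which had 3.87, 4.04 and 47.1 CPM in vehicle mice 1, 2 and 4. Without oxaliplatin mouse 5, 22 list genes passed, in a fit where 25.5% of all genes did, among them Slc2a1 (1.57), Akt2 (-1.49) and Nr3c1 (-0.81), the glucocorticoid receptor, a gene named here after its value was seen.

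In hypothalamus 1 of 67 tested list genes passed, Slc2a1, with 120, 121 and 131 CPM in vehicle and 353, 352, 289 and 203 CPM in oxaliplatin libraries. It rose by 1.27 ± 0.18 on the log2 scale (SE, edgeR adjusted p = 0.043), and passed in 1 of 7 fits that left out a library, the one without oxaliplatin mouse 5. GLUT1 is abundant in brain endothelium, and the endothelial sums given above, mostly Vwf after oxaliplatin, moved with it, a part that was not tested. Slc16a3, a lactate exporter, had 3.26 ± 0.367 and 8.502 ± 2.23 CPM (SD), a log2 change of 1.38 ± 0.23 (edgeR adjusted p = 0.076), and Ldha had 154 ± 24.2 and 265 ± 40.7 CPM, a log2 change of 0.78 ± 0.15 (edgeR adjusted p = 0.11). Lower glycolysis and lactate had a median of 0.28 with 14 of 18 genes above 0, beside 0.01 over all genes, and 10 of its genes did not overlap, where 9.93% of all genes did not. Pfkl (0.28) and Pfkp (0.26) lay above 0 without overlap (edgeR adjusted p = 0.41 for both), Pfkm (0.01) and Tigar (-0.11) overlapped, and the other genes of smallest p were Slc2a5 (-0.98), Pdk4 (0.97), Pdp2 (-0.34), Prkag2 (-0.21) and Fzr1 (-0.19), with adjusted p from 0.37 to 0.50.

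**Figure D5:**
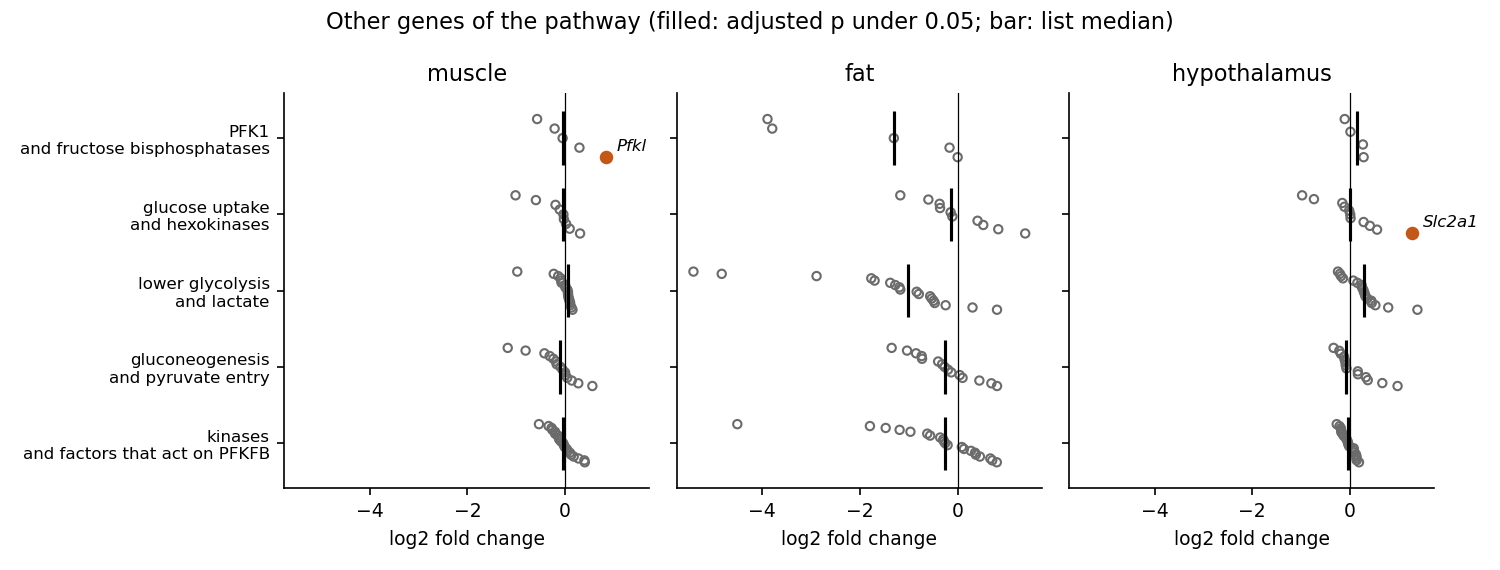
The log2 fold change, oxaliplatin over vehicle, of each tested gene of the 5 pathway lists in each tissue, with 1 point per gene, filled where the edgeR adjusted p was under 0.05, and a bar at the list's median. Only Pfkl in muscle and Slc2a1 in hypothalamus are filled, and in fat the list of lower glycolysis lies mostly below 0 with a median of -1.004, which was -0.24 without the library that held muscle markers.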

How the data were processed

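Each deposited table gives 1 expected count per gene and library, an estimated read count that the authors did not scale between libraries, as the values show. STAR 2.5.1a, Partek and DESeq2 are named in the submitters' processing notes without their roles, and no source used here gives the genome build; gene starts equalled GENCODE M21 (GRCm38) for 99.43% to 99.48% of shared identifiers. Counts were rounded to whole numbers and fitted per tissue in edgeR 4.0.16 (R 4.3.3): filterByExpr (minimum count 10, minimum total 15), TMM factors, robust quasi-likelihood F test, Benjamini-Hochberg adjustment, threshold 0.05. The SE of a log2 change is its size over the square root of F. CPM uses TMM library sizes of each tissue's own fit, except in the comparison of vehicle fat with vehicle hypothalamus, which uses those of its joint fit.

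The members, gene lists and tests were chosen with earlier results of these data known. Genes named are the 4 members, each list gene that passed, the 2 of smallest p per list and tissue where fewer than 2 passed, each gene of the list of PFK1 and fructose bisphosphatases, and the 5 genes most like each member among those with at least 1 CPM in each tissue. Within groups, no pair of libraries was a copy (lowest chi-square per degree of freedom 7.37 over 34 pairs). P-values measure only the spread between these libraries. Alternatives were DESeq2 1.42.0, its size factors in edgeR, other filters, other gene lengths, a replicate block, the muscle mouse 5 label and leaving out each library. The edgeR steps were tested on simulated data with the same spread for every gene and no outlying library. That test does not show how they behave where single libraries stand out, as in fat.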

Additional observations from a re-analysis of the deposited data

Results flagged for a closer look

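Pfkfb3 in the oxaliplatin fat library of mouse 5, at 793.3 CPM, lay far from the other 3 libraries of its group, which had 220.2 to 303.5 CPM. Of 16 such checks (4 members in each of 4 groups with at least 4 libraries), this was the only library past Dixon's 95% limit, and chance marks about 1 in 20. The log2 change of Pfkfb3 in fat, -1.47, ran opposite to that in muscle, with every oxaliplatin library of one tissue above its vehicle mean and every one of the other below; the difference between the tissues was not tested, and the family was chosen for it. The log2 change of Pfkfb3 in hypothalamus, 0.20, likewise ran opposite to that in fat, with each oxaliplatin library above the vehicle mean although the groups overlapped, and this difference was not tested either.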

How the results depend on the processing

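With DESeq2, 254 genes were called in muscle (24 in edgeR), 2450 in fat (0) and 262 in hypothalamus (28). Of the list genes it called 2 in muscle, both of PFK1 and fructose bisphosphatases. In hypothalamus it called 1 of glucose uptake (Slc2a1) and 4 of lower glycolysis (Gpi1, Tpi1, Ldha and Slc16a3). In fat it called 1, 1, 4, 3 and 5 in the order in which the lists were named. Without a filter 42 genes were called in muscle. With muscle mouse 5 counted as vehicle, Pfkfb3 changed by 0.97, 0 genes were called and 0 of the PFK1 list. Within tissues, deviations of same-numbered vehicle and oxaliplatin libraries correlated at -0.28 to 0.17. Between vehicle fat and hypothalamus, those of same-numbered libraries correlated at 0.01 to 0.04 and those of other pairs at -0.03 to 0.004. These values are small but do not exclude that numbers name the same animals there, and the main fit used no pairing. With the replicate block, 3 genes were called in muscle, Pfkfb3 in fat changed by -2.09 and Pfkfb2 in hypothalamus by 0.027, a turned sign. No other member changed direction or side of the threshold. Within a tissue the block matches vehicle and oxaliplatin libraries by number alone. In fat and hypothalamus only mice 2 and 4 have a library in both groups, so the blocked changes there rest on those libraries.

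Leaving out 1 library, calls ranged from 2 to 17 in muscle, 0 to 4969 in fat and 0 to 655 in hypothalamus, the highest in fat and hypothalamus without oxaliplatin mouse 5 of that tissue. Pfkfb3 in fat ranged from -2.09 to -1.27, and it and Pfkfb4 were called, of these fits, only in the one without oxaliplatin mouse 5. Pfkfb2, near 0, ranged from -0.18 to 0.071 in hypothalamus and from -0.042 to 0.21 in vehicle fat over hypothalamus. List genes called ranged from 0 to 1 for PFK1 and fructose bisphosphatases in muscle; from 0 to 2 for glucose uptake, 0 to 7 for lower glycolysis, 0 to 3 for gluconeogenesis and 0 to 10 for kinases and factors in fat, where 2 libraries were left out in turn; and from 0 to 1 for glucose uptake, 0 to 4 for lower glycolysis and 0 to 3 for gluconeogenesis in hypothalamus. The list fits that left out a library, those with mouse 5 as vehicle, and the likeness to each member without vehicle fat mouse 4, were added after seeing the data.

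Without length correction, shares of the family sum in muscle were 28.9% (Pfkfb1), 4.14% (Pfkfb2), 36.6% (Pfkfb3) and 30.3% (Pfkfb4) in vehicle and 14.3%, 2.63%, 68.2% and 14.8% (Pfkfb1 to Pfkfb4) in oxaliplatin libraries. In fat they were 4.06% (Pfkfb1), 92.1% (Pfkfb3) and 2.11% (Pfkfb4) in vehicle and 8.71%, 84.3% and 1.75% in oxaliplatin libraries, and in hypothalamus 60.3% (Pfkfb3) and 14.8% (Pfkfb4) in vehicle and 65.1% and 12.5% in oxaliplatin libraries. With the longest transcript as length, Pfkfb4 in vehicle hypothalamus was 18.9%. Depth limits Pfkfb1 in hypothalamus, at 4 to 18 counts, and group sizes of 3 to 5 limit the rest.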
